A study of Homo sapiens with 6 samples.

Results

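MicroRNAs (miRNAs) were compared between the control cultures of Lovo, SW620 and HT29, established lines of human colorectal cancer cells. The arrays were chosen by the sample titles: the 3 of 6 arrays whose titles name a control short hairpin RNA (shRNA), with the 1891 probes named as human miRNAs out of 3531 (landmark and empty spots left out). The other 3 arrays of the series carry the same lines with an shRNA against TGFB1, which encodes the growth factor TGF-β1, and are used here only beside the control arrays. All 6 cultures were stably transfected with a pSUPER gfp-neo vector, a plasmid that drives an shRNA together with a green fluorescent protein and a neomycin resistance gene, so none is an untransfected parent line. Per the series description each culture was grown and harvested on its own, and there was 1 array per line and shRNA. Differences between lines were therefore described and not tested, and each value carries only the error between the 4 replicate spots of a probe on 1 array.

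The labels are not all in accord. The title and source name of the Lovo control array give the control shRNA, but another field of the same sample gives the vector and genotype of the TGF-β1 knockdown. For HT29 the conflict runs the other way: its control array carries the control vector in every field, but the array whose title and source name give the TGF-β1 shRNA has the control vector and genotype in another field. Both SW620 arrays have fields in accord. Arrays are called control or knockdown here by title and source name alone. TGFB1 is a messenger RNA without a probe on these arrays, so the labels could not be checked against its level. The named differences that involve Lovo were also computed with the other Lovo array, and those that it changed are given at the end.

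A miRNA is cut from one arm of a hairpin transcript, the 5p or the 3p arm, loaded into an Argonaute protein and guided to messenger RNAs mainly by its seed, the bases at positions 2 to 8. MiRNAs that share a seed are counted as a family, since they can pair with the same sites. In colorectal epithelium the miR-200 family represses the ZEB1 and ZEB2 regulators and so keeps cells epithelial, miR-192, miR-194 and miR-215 are gut epithelial miRNAs, and miR-21 and the MYC-induced miR-17-92 cluster are known for high levels in tumours. Lovo and SW620 were established from metastases and HT29 from a primary tumour.

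The sequences below are those on which the results turn, from RefSeq (GRCh38.p14), with the seed in capitals. Of the 1890 human miRNA names on the array, 1566 matched a RefSeq entry. The first set holds 8 miRNAs that were among the 20 brightest on all 3 control arrays.
miR-5100: uUCAGAUCccagcggugccucu
miR-4454: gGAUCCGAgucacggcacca
miR-1246: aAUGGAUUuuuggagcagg
miR-4443: uUGGAGGCguggguuuu
miR-4639-3p: uCACUCUCaccuugcuuugc
miR-20a-5p: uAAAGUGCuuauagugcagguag
miR-125b-5p: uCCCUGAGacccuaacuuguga
miR-21-5p: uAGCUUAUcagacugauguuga

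The mature miR-5100 lies at chr10:42997630-42997651 on the plus strand, miR-4454 at chr4:163093607-163093626 and miR-1246 at chr2:176601024-176601042 (both minus strand), and miR-4443 at chr3:48196572-48196588 (plus strand), all outside the spans of other annotated genes. MiR-4639-3p (chr6:16141603-16141622, plus strand) lies within MYLIP, miR-21-5p (chr17:59841273-59841294, plus strand) within VMP1, and miR-20a-5p (chr13:91351072-91351094, plus strand) within MIR17HG, the host transcript of the miR-17-92 cluster. MiR-125b-5p has 2 copies, at chr11:122099809-122099830 on the minus strand within MIR100HG and at chr21:16590253-16590274 on the plus strand within MIR99AHG. As background, miR-1246 also occurs as a stretch of U2 small nuclear RNA, and miR-4454 and miR-1260b resemble parts of transfer RNAs, so their probes can report those RNAs too.

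The next set holds epithelial and gut miRNAs that were above the detection cutoff on the Lovo array, beside miR-375. All 5 stayed under the 95th percentile of probes for viral miRNAs there. MiR-141-3p and miR-200a-3p share one seed, and miR-200b-3p and miR-200c-3p share another that differs from it at a single base.
miR-141-3p: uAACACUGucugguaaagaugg
miR-200a-3p: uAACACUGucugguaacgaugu
miR-200b-3p: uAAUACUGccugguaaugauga
miR-200c-3p: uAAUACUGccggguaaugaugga
miR-192-5p: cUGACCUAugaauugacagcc

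MiR-141-3p (chr12:6964155-6964176) and miR-200c-3p (chr12:6963742-6963764) lie side by side on the plus strand within MIR200CHG. MiR-200a-3p (chr1:1167916-1167937) and miR-200b-3p (chr1:1167160-1167181) form a second cluster on the plus strand within MIR200BHG. MiR-192-5p lies at chr11:64891203-64891223 on the minus strand within MIR194-2HG.

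The third set holds members of the miR-15/16 and miR-17 seed families that had their highest signal on the HT29 array. The seed is AGCAGCA in the first 4 and AAAGUGC in the other members.
miR-15a-5p: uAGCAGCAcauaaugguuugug
miR-15b-5p: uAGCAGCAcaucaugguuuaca
miR-16-5p: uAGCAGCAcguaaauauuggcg
miR-195-5p: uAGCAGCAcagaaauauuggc
miR-17-5p: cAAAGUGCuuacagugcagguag
miR-93-5p: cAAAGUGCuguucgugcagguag
miR-106b-5p: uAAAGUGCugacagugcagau

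MiR-15a-5p (chr13:50049167-50049188) and the first copy of miR-16-5p (chr13:50049027-50049048) lie on the minus strand within DLEU2. MiR-15b-5p (chr3:160404607-160404628) and the other copy of miR-16-5p (chr3:160404754-160404775) lie on the plus strand within SMC4 and TRIM59-IFT80. MiR-195-5p lies at chr17:7017667-7017687 on the minus strand within MIR497HG. MiR-17-5p (chr13:91350618-91350640, plus strand) belongs to MIR17HG, while miR-93-5p (chr7:100093815-100093837) and miR-106b-5p (chr7:100094043-100094063) lie on the minus strand within MCM7.

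The last set holds miRNAs named for a higher signal on 1 control array: miR-5000-3p, miR-614 and miR-363-5p on Lovo, miR-4711-3p on HT29 and miR-199a-5p on SW620. MiR-199a-5p did not stand far apart, with 4334.5 on SW620 against 3095.5 on HT29 and 2101 on Lovo.
miR-5000-3p: uCAGGACAcuucugaacuugga
miR-614: gAACGCCUguucuugccaggugg
miR-363-5p: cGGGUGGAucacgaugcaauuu
miR-4711-3p: cGUGUCUUcuggcuugau
miR-199a-5p: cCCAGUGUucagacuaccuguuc

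MiR-5000-3p (chr2:75090873-75090894, plus strand) lies within TACR1, miR-614 (chr12:12915882-12915904, plus strand) within GPRC5A and miR-363-5p (chrX:134169425-134169446, minus strand) within MIR106AHG. MiR-4711-3p (chr1:59733235-59733252, minus strand) lies within FGGY. MiR-199a-5p has 2 copies on the minus strand, at chr1:172144592-172144614 within DNM3 and DNM3OS and at chr19:10817469-10817491 within DNM2.

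Throughout, the signal of a miRNA on an array is its foreground intensity less the background, as the median of its replicate spots in scanner units, and a miRNA was called detected at a signal of at least 50. The Lovo control array detected 481 human miRNA probes (25.4% of 1891), the SW620 array 502 (26.5%) and the HT29 array 425 (22.5%). Probes against viral miRNAs, whose targets these cells are not known to make, were called detected at nearly the same rate: 30, 35 and 28 of 146, or 20.5%, 24.0% and 19.2%. Signals close to 50 therefore say little about presence. Above the 95th percentile of the viral probes (413.75 on Lovo, 424.875 on SW620 and 372.25 on HT29) lay 134, 109 and 167 human miRNAs. The 7 negative control probes were below 0 on all 3 arrays. Arrays, not depth, limit the precision here, with 1 per line.

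In all, 582 human miRNA probes were detected on at least 1 control array, and 360 of them (61.9%) on all 3. A further 63 were shared by Lovo and SW620, 27 by SW620 and HT29 and 16 by Lovo and HT29. Those detected on 1 line alone numbered 42 for Lovo, 52 for SW620 and 22 for HT29, and 27, 34 and 10 of them had a signal under 100. The remaining 1309 probes were detected on none.

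The same few probes led the signal in every line. The 3 lists of the 20 brightest probes held 25 miRNAs in all, of which 15 were in all 3 lists, 5 in 2 and 5 in 1. The 20 brightest held 39.8% of the summed human signal on Lovo, 41.9% on SW620 and 47.9% on HT29. A probe's brightness depends on its own binding as well as on the amount of its miRNA, so these ranks order signals and not copies, and only the same probe is compared between lines.

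MiR-5100 was the brightest probe on each array, with a signal of 29852 on Lovo, 30498.5 on SW620 and 45261.5 on HT29, or 11.7%, 12.6% and 13.3% of the summed signal. MiR-4454 followed at 9175.5, 9074.5 and 16393, and miR-1246 at 9018.5, 9248 and 13891.5. These 3 kept the top 3 places in every line, with miR-1246 ahead of miR-4454 only on SW620. MiR-4443 (6041.5, 4547 and 8299.5) and miR-4639-3p (5885.5, 4034 and 7391.5) were among the 8 brightest throughout. All 5 carry registry numbers over 1000, as did 17 of the 25 miRNAs (68.0%) against 55.9% of all human probes. Higher registry numbers mark later entries, which are often less studied.

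Among the long-known miRNAs, miR-125b-5p, the vertebrate relative of the worm miRNA lin-4, had a signal of 4426 on Lovo, 5349.5 on SW620 and 11246.5 on HT29. MiR-20a-5p, a member of the miR-17-92 cluster, gave 4578.5, 3814 and 3824. MiR-21-5p, which represses the tumour suppressor PDCD4, gave 3170, 2722.5 and 4622 and ranked 8, 11 and 10. MiR-31-5p, often raised in colorectal tumours, ranked 24, 21 and 36 with signals of 1828.5, 1825 and 1748.5, which lie close together before normalisation. On the normalised log2 scale described below, it was higher on SW620 than on HT29 by 0.62, with a standard error of 0.30 over spots. MiR-199a-5p ranked 7 on SW620 (4334.5), and was dimmer on Lovo (2101) and HT29 (3095.5).

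**Figure D1:**
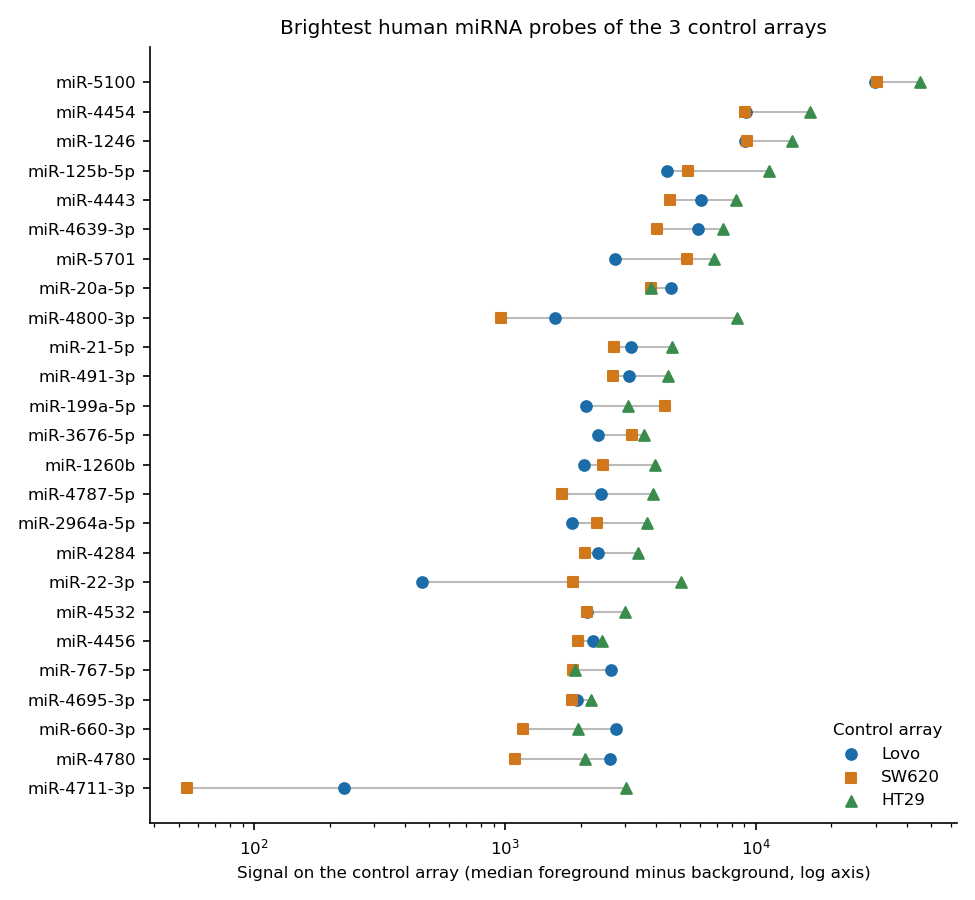
Signal (median over spots of foreground minus background, log axis) of the 25 miRNAs that were among the 20 brightest on at least 1 control array, 1 symbol per line with a grey bar from the lowest to the highest. Most span less than a factor of 3, while miR-4711-3p runs from 54 on SW620 to 3047 on HT29 and miR-22-3p from 467 on Lovo to 5047 on HT29.

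The members that entered only some lists showed the widest gaps. MiR-22-3p ranked 119 on Lovo, 19 on SW620 and 9 on HT29, with signals of 467, 1862 and 5047. MiR-4800-3p ranked 25, 37 and 5, with signals of 1588.5, 968.5 and 8410.5. MiR-4711-3p ranked 237, 495 and 19, with signals of 228, 54 and 3047. All 3 were brightest on HT29. MiR-660-3p (2769, 1175 and 1962) and miR-4780 (2611.5, 1095 and 2081) were in the list of Lovo alone. MiR-4695-3p was in the list of SW620 alone although its signal there, 1850, was close to that on the other arrays, and its rank on Lovo was 21.

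Short miRNAs were more frequent among the 20 brightest probes than among all detected miRNAs. Of the brightest, 18, 17 and 17 had a RefSeq sequence. Shorter than 21 bases were 8 on Lovo (44.4%), 8 on SW620 (47.1%) and 9 on HT29 (52.9%), against 17.1%, 17.5% and 18.0% of all detected miRNAs. The median length of the brightest was 21.5, 22 and 20 bases, against 22 for detected miRNAs on each array. Since 15 miRNAs are in all 3 lists, the lists are not separate observations. The GC content of the brightest was close to that of the detected miRNAs, with medians of 52.2% against 47.8% on Lovo, 52.2% against 50% on SW620 and 50% against 47.6% on HT29. MiR-4443, with 17 bases, and miR-1246, with 19, are examples in the sequences above.

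The labelled cell type was then set against marker miRNAs. Markers of colorectal epithelium were weak on Lovo and mostly below the cutoff on SW620 and HT29. On Lovo 4 of the 5 miR-200 family members were detected, on SW620 1 and on HT29 none, where the shares over all human probes were 25.4%, 26.5% and 22.5%. A count of 1 of 5 is near that share. Of the 5 gut epithelial miRNAs, 2 were detected on Lovo, 1 on SW620 and none on HT29, and miR-194-5p, miR-215 and miR-203a were below the cutoff on all 3. In bulk RNA, fewer cells that hold a miRNA and less of it per cell cannot be told apart.

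MiR-141-3p had a signal of 245.5 on Lovo, -40 on SW620 and -94.5 on HT29. MiR-200b-3p gave 201.5, 25 and -13.5, and miR-200c-3p gave 123.5, 81 and 22.5. Only Lovo was above the cutoff for miR-141-3p and miR-200b-3p, and Lovo and SW620 for miR-200c-3p. MiR-192-5p gave 242, 24.5 and -18.5, and miR-375, known from pancreatic islets and gut endocrine cells, gave 494, 255.5 and 10. None of the miR-200 signals on the control arrays passed the 95th percentile of the viral probes, and of the gut miRNAs only miR-375 on Lovo did. On the other Lovo array miR-141-3p was at 4531, miR-200c-3p at 1127, miR-200b-3p at 159 and miR-192-5p at 1912.5, while on the knockdown arrays of SW620 and HT29 no miR-200 member was detected.

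Because Lovo was the only array above the cutoff for miR-141-3p and miR-192-5p, their differences are bounds. Taking the dim arrays at the lowest normalised level of detected probes or at their own level, whichever was higher, miR-141-3p was at least 2.10-fold and miR-192-5p at least 2.11-fold brighter on Lovo than on the other arrays.

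Probes for markers of other cell types were also read against the share of all human probes detected (25.4%, 26.5% and 22.5%). Of 9 fibroblast and smooth muscle markers, 6 were detected on Lovo, 5 on SW620 and 8 on HT29, with 2.97%, 4.38% and 4.81% of the summed signal, most of it from miR-125b-5p and miR-199a-5p. MiR-143-3p, which is abundant in smooth muscle and low in epithelial cells, was detected on HT29 alone (38.5, -1 and 236.5), as was the merged probe for miR-199a-3p and miR-199b-3p (6.5, 24 and 300). MiR-145-5p, the cluster partner of miR-143-3p, was weak and even (183.5, 181 and 195.5). Of 7 blood cell markers 4, 4 and 3 were detected, and miR-142-3p, which is largely restricted to blood cells, gave 265, 1194.5 and 2645, while miR-223-3p, miR-451a and miR-144-3p were below the cutoff on every control array. Neither endothelial marker, miR-126-3p and miR-126-5p, was detected.

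Of 12 muscle, liver and brain markers 3, 5 and 4 were detected, which on Lovo is close to the share over all probes and says little about these markers. Among them were the brain miRNAs miR-124-3p (140, 244 and 269) and miR-9-3p (753, 777.5 and 1076.5). The liver miRNA miR-122-5p was below 0 on all 3 arrays. The listed members of the placental cluster on chromosome 19 were mostly below the cutoff, with 0, 3 and 1 of 29 detected. Of 33 listed members of the imprinted cluster on 14q, 2, 3 and 1 were detected. That list is not complete, as it leaves out miR-668, which was detected on all 3 arrays (1128, 427 and 187.5). The counts therefore do not cover the whole cluster. Of 8 embryonic stem cell miRNAs only miR-302a-3p was detected, at 1025, 428 and 636. Whether these signals come from the named miRNA or from other RNA bound by its probe was not tested.

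**Figure D2:**
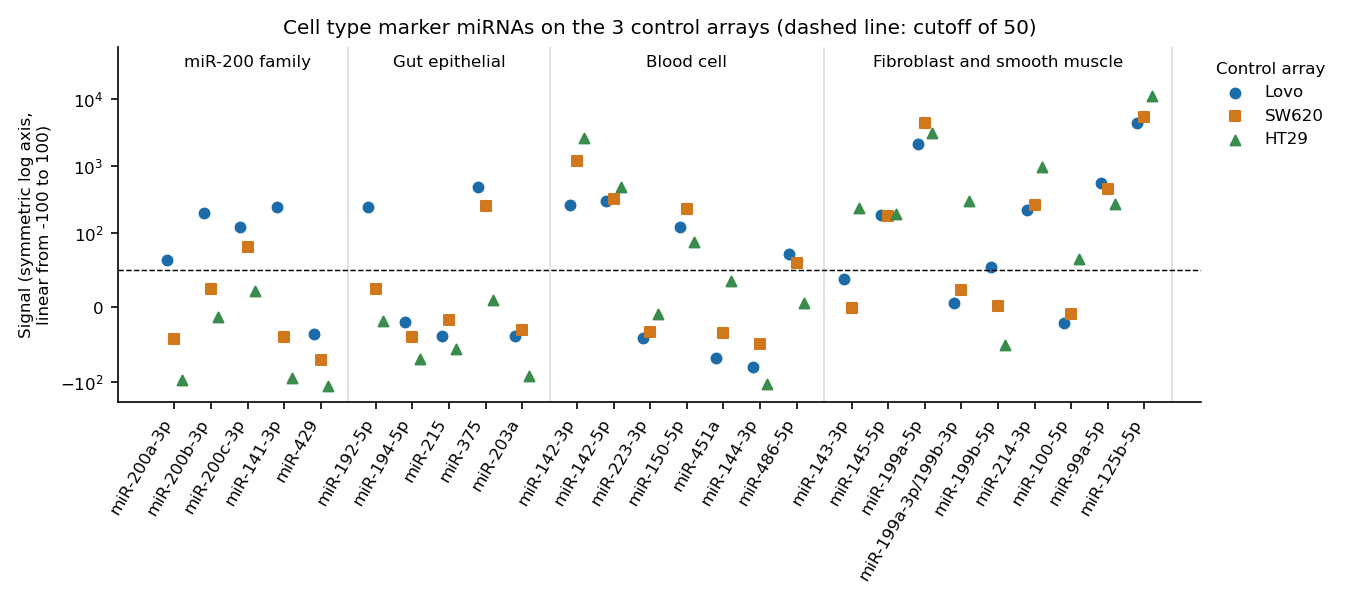
Signal of marker miRNAs on the 3 control arrays, on a symmetric log axis that is linear from -100 to 100, with the detection cutoff of 50 as a dashed line. The miR-200 members and miR-192-5p lie near or under the cutoff on SW620 and HT29 and between 63.5 and 245.5 on Lovo where detected, miR-375 reaches 494 on Lovo and 255.5 on SW620, and miR-125b-5p and miR-199a-5p reach 2101 to 11246.5 on all 3 arrays.

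To compare lines, intensities were background-corrected, put on the log2 scale and quantile-normalised, which gives every array the same distribution of values. Differences are given on this log2 scale with the standard error (SE) over spots, and a difference of 1 is a 2-fold difference. The correction leaves undetected probes at a floor, so the differences understate the ratio of signals for dim miRNAs. Of 423 miRNAs detected on both Lovo and SW620, 21 (4.96%) differed at least 2-fold, 9 (2.13%) higher on Lovo and 12 (2.84%) higher on SW620. Of 376 detected on both Lovo and HT29, 29 (7.71%) did, 10 (2.66%) higher on Lovo and 19 (5.05%) higher on HT29. Of 387 detected on both SW620 and HT29, 22 (5.68%) did, 7 (1.81%) higher on SW620 and 15 (3.88%) higher on HT29.

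The split between the directions depends on how arrays are scaled. Without normalisation between arrays it was 17 to 7 for Lovo over SW620, 6 to 45 for Lovo over HT29 and 0 to 60 for SW620 over HT29. With median scaling it was 17 to 7, 29 to 17 and 8 to 11, and with cyclic loess the split of SW620 over HT29 was 4 to 18. With scaling on the spike control probes, whose median signal was 492.25 on Lovo, 919.5 on SW620 and 3863.25 on HT29, it was 230 to 0, 365 to 0 and 319 to 2. That last scaling moves the median of all miRNAs by 1.04, 2.51 and 1.46, no normalisation moves it by up to -0.51 and median scaling by up to 0.24. Every difference and list median below is therefore relative to the bulk of the miRNAs, and with spike scaling 7 of the 40 list medians kept their sign.

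**Figure D3:**
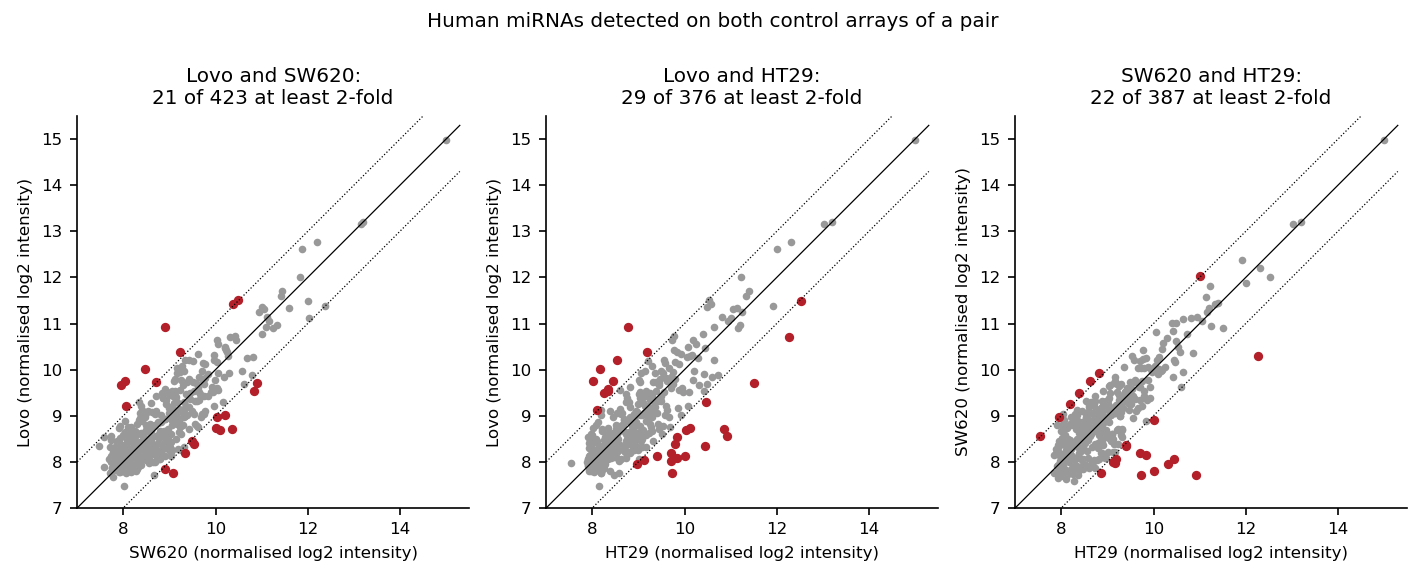
Normalised log2 intensity of the human miRNAs detected on both control arrays of a pair, 1 point per miRNA, with lines of equality (solid) and of a 2-fold difference (dotted) and points at or past 2-fold in red. Most of the 423, 376 and 387 points lie between the dotted lines, and the brightest points lie close to equality.

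Across the 360 miRNAs detected on all 3 control arrays, the range over the lines had a median of 0.53, and 169 (46.9%) stayed under 0.5. A range of at least 1 was reached by 49 (13.6%), of which 14 were highest on Lovo, 14 on SW620 and 21 on HT29. The most even included miR-106a-5p (694, 597 and 932.5, range 0.07), miR-365b-5p (127.5, 112.5 and 122.5, range 0.06) and miR-3136-3p (345.5, 267.5 and 324.5, range 0.06). MiR-5100 and miR-4454 had a range of 0 only because quantile normalisation gives equal values to equal ranks.

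Several miRNAs were brighter on Lovo than on both other lines. MiR-5000-3p had a signal of 1849 on Lovo, 271.5 on SW620 and 289 on HT29, a difference of 2.02 ± 0.20 (SE over 4 spots) from SW620 and 2.15 ± 0.25 from HT29. MiR-614 gave 955.5, 168 and 111, with differences of 1.53 ± 0.34 and 1.83 ± 0.34. MiR-363-5p, from the arm opposite to miR-363-3p in the miR-106a-363 cluster, gave 742, 103.5 and 74.5, with differences of 1.70 ± 0.20 and 1.73 ± 0.23. In all 3 cases Lovo stood apart and the other lines lay together, and miR-363-3p itself was below 0 on every control array. On the knockdown arrays Lovo was again the highest, with miR-5000-3p at 995 against 237.5 on HT29 and less on SW620, miR-614 at 729 against 248 on SW620 and 89 on HT29, and miR-363-5p at 389 against 24.5 and 75.

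MiR-4297 was the other miRNA among the 8 highest differences against both lines, with 1220, 358 and 498 and differences of 1.17 ± 0.31 and 1.21 ± 0.24, or 0.56 and 0.60 with the other Lovo array. Against SW620 the list also held miR-5699, miR-4780 (1.05, or 0.99 with the median over spots), miR-660-3p and miR-3960. MiR-3960 had an SE of 1.05 on a difference of 1.72, so that its replicate spots disagreed. Against HT29 it also held miR-668 (1128, 427 and 187.5), miR-4524b-5p, miR-4758-3p and miR-24-1-5p, the arm opposite to miR-24-3p, with differences between 1.23 and 1.68. With the other Lovo array miR-4524b-5p fell to 0.72. On the knockdown arrays these 4 differed by 0.35 to 0.92, all in the same direction and under 2-fold.

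Members of the miR-15/16 family were among the miRNAs brighter on HT29. MiR-16-5p, a repressor of the survival factor BCL2, had a signal of 104.5 on Lovo, 99 on SW620 and 1775.5 on HT29, a difference of -2.10 ± 0.57 (Lovo minus HT29) and -2.39 ± 0.70 (SW620 minus HT29). MiR-15a-5p, its neighbour in DLEU2, gave 60, 284 and 1170.5, and miR-15b-5p gave 21, 76.5 and 1146.5. MiR-195-5p gave 74.5, 391.5 and 936.5, so that HT29 was the highest for each and SW620 lay between the others for 3 of the 4. The differences between Lovo and HT29 were -1.88 ± 0.51 for miR-15a-5p and -1.51 ± 0.50 for miR-195-5p. MiR-15b-5p was not detected on Lovo and differed by -2.21 ± 0.40 between SW620 and HT29.

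The 5 detected members with the seed AGCAGCA, miR-424-5p included, all had their highest normalised value on HT29, where 28.2% of the 482 detected miRNAs with a sequence had theirs. MiR-424-5p was close to the cutoff on all 3 arrays (48.5, 50.5 and 66.5). The list of the miR-15/16 family had a median difference of -0.77 between Lovo and SW620, -1.88 between Lovo and HT29 and -1.11 between SW620 and HT29, over 3, 3 and 5 members, against medians of 0, -0.02 and 0.01 over all miRNAs.

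The seed AAAGUGC of the miR-17 family had 6 detected members, of which 4 were highest on HT29, 1 on Lovo and 1 on SW620. MiR-106b-5p had a signal of 52.5 on Lovo, 56 on SW620 and 912.5 on HT29, with differences of -1.96 ± 0.19 and -2.01 ± 0.24 against HT29. MiR-93-5p, from the same intron of MCM7, was detected on HT29 alone (19.5, 49 and 508.5) and was at least 2.85-fold brighter there. MiR-17-5p gave 252.5, 356 and 662, with differences of -0.92 ± 0.68 and -0.26 ± 0.80 against HT29. MiR-20a-5p, which lies in the same transcript, was highest on Lovo. With such errors over spots, whether the 2 miRNAs differ in their order over the lines cannot be told. MiR-19a-3p, of the same transcript and another seed, gave 115, 145.5 and 974, with differences of -1.76 ± 0.10 and -1.69 ± 0.39.

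Over the 9 members of the miR-17-92 cluster and its paralogues detected on each pair, the median difference was -0.07 between Lovo and SW620, -0.73 between Lovo and HT29 and -0.45 between SW620 and HT29. At least 2-fold higher on HT29 were 3 of 9 against Lovo and 2 of 9 against SW620, beside 5.05% and 3.88% of all miRNAs. The miR-30 family, whose members target among others the autophagy gene BECN1, had medians of -0.21, -0.74 and -0.52 over 5 members. Its miR-30b-5p gave 68.5, 121 and 908, with differences of -1.70 ± 0.39 and -1.53 ± 0.16 against HT29.

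The let-7 family, which represses RAS genes and the stem cell factor LIN28, had 7 of its 9 listed members detected on each array. The shares over all human probes were 25.4%, 26.5% and 22.5%. The family held 1.85%, 1.87% and 2.28% of the summed signal, with medians of -0.24, -0.18 and -0.21 over the 3 pairs. Between Lovo and HT29, let-7a-5p and let-7d-5p were at least 2-fold lower on Lovo (-1.40 ± 0.78 and -1.08 ± 0.08). The medians depend on which members are counted: the seed GAGGUAG, whose detected members include miR-4500 and lack let-7c, for which no sequence was matched, had medians of -0.32, -0.76 and -0.11 over 7 members. Let-7e-5p gave 1223, 943 and 1890.5. Let-7a-5p gave 482.5, 780.5 and 1247.5, with a difference of -1.29 ± 0.78 between Lovo and SW620 in which the spots disagreed, and which was -0.70 with the median over spots. Let-7f-5p and miR-98-5p were below 0 on all 3 arrays.

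**Figure D4:**
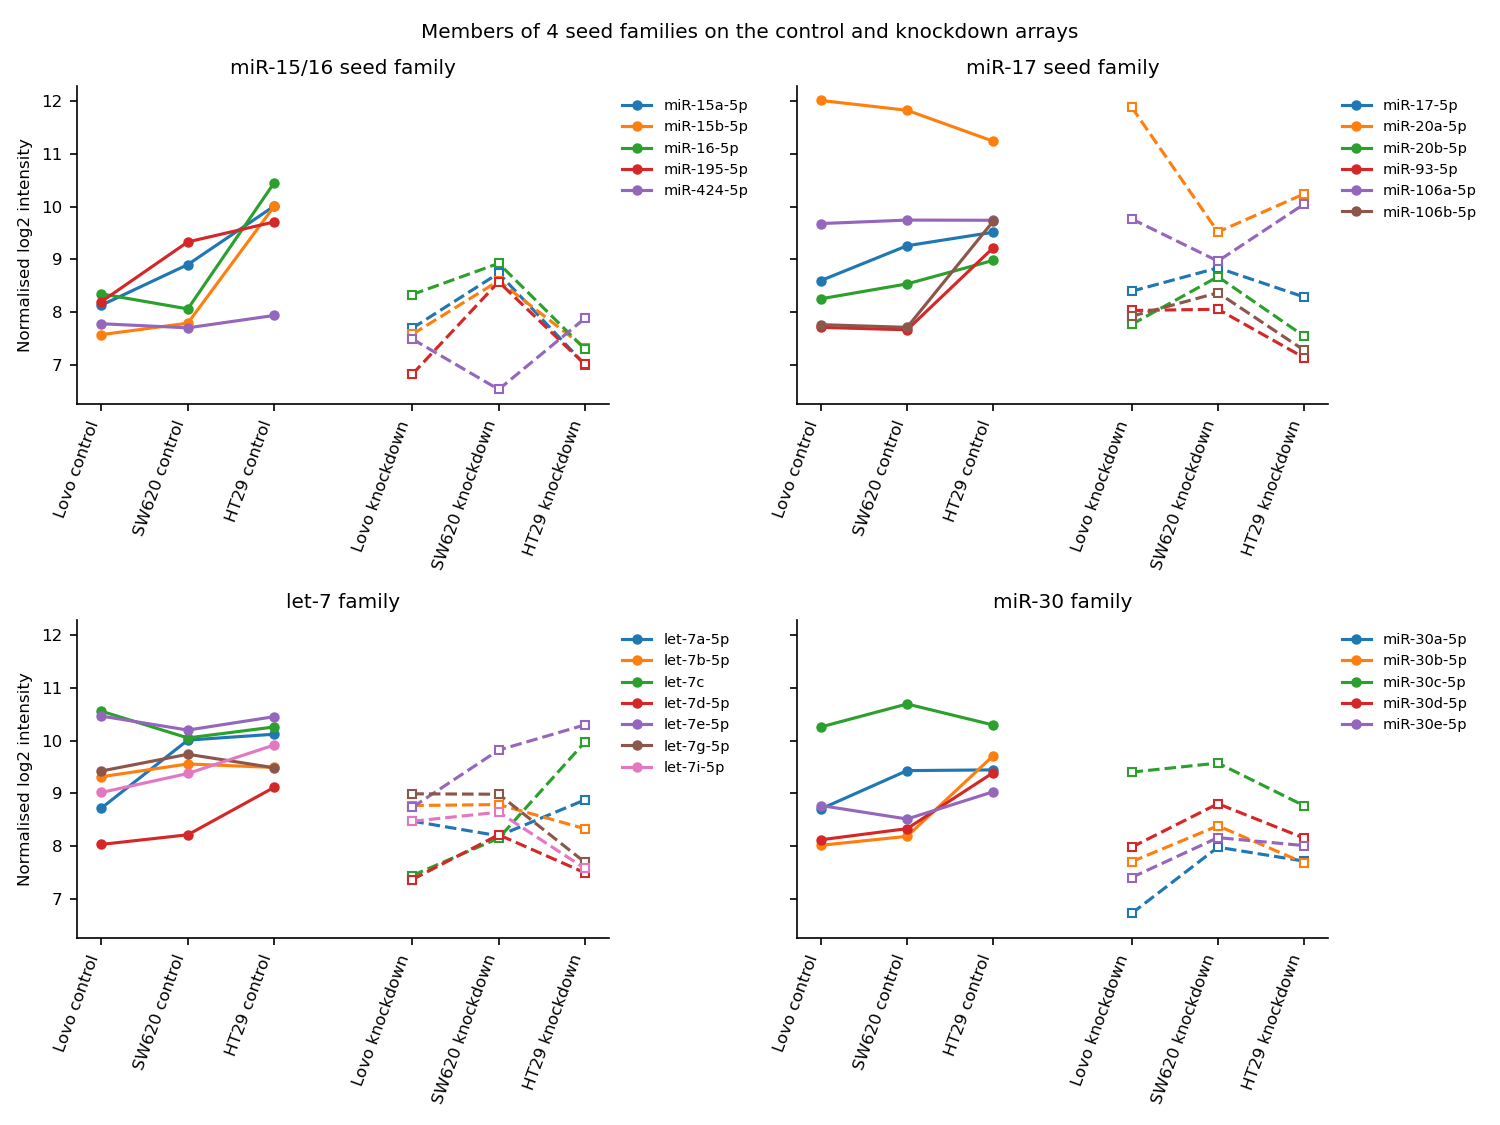
Normalised log2 intensity of the members of 4 families on the 3 control arrays (filled circles, solid lines) and the 3 knockdown arrays (open squares, dashed lines) and lines that join the values of 1 miRNA. The detected miR-15/16 members are highest on the HT29 control array, and on the knockdown array of HT29 miR-15a-5p, miR-15b-5p, miR-16-5p and miR-195-5p are undetected, at signals of -61, -9.5, -22 and -58.

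These higher values on HT29 were absent from its knockdown array, where none of the 7 listed miR-15/16 members was detected, against 5 on the control array. The share of all human probes detected was 22.2% on the HT29 knockdown array and 22.5% on the HT29 control array. The next signals are those on the HT29 knockdown array. MiR-106b-5p, miR-93-5p and miR-19a-3p had signals of -30, -46.5 and -33.5 there, and miR-22-3p had 38.5 against 5047 on the control array. The HT29 control array also had the highest summed human signal (341166, against 255458 on Lovo and 242126 on SW620) and the highest spike signal, and the part of either in these differences was not tested. With scaling on the spike control probes the differences between Lovo and HT29 reversed for miR-142-3p, miR-16-5p, miR-106b-5p, miR-15a-5p, miR-22-3p, miR-19a-3p and miR-30b-5p, with values between 0.16 and 0.72.

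Other groups differed less in what was detected. Their counts, here and in the next paragraph, stand beside shares over all human probes of 25.4%, 26.5% and 22.5%. Of 8 miRNAs that are often raised in colorectal tumours 4 were detected on each array, 2 of them above the 95th percentile of the viral probes. MiR-21-5p and miR-31-5p held most of the signal of this list. Of 8 that are often lowered 4, 5 and 5 were detected, with medians of -0.41, -0.46 and -0.23 over 4 members. The miR-23, miR-24 and miR-27 clusters were detected in full (5 of 5) on each array. The HOX cluster miRNAs, which lie among the homeobox genes, numbered 4, 5 and 5 of 5, with miR-615-3p at 869, 843 and 594.5 and miR-10a-5p at 640, 837.5 and 951.5.

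The miR-29 family, which represses collagen genes, was dimmer on Lovo. MiR-29a-3p gave 924, 1515 and 2295.5, and miR-29b-3p gave 306.5, 838.5 and 940, a difference of -1.07 ± 0.23 between Lovo and SW620. MiR-29c-3p was detected on SW620 (54.5) and HT29 (258.5) and not on Lovo (7.5). Of the miR-34 family, miR-34a-5p and miR-34c-5p were detected on HT29 and no member on the other arrays. Of 6 reference miRNAs 5, 6 and 6 were detected. MiR-103a-3p (510.5, 527 and 539) was close to even in signal, while miR-16-5p and miR-191-5p were not. After normalisation miR-103a-3p differed by 0.40 ± 0.09 between SW620 and HT29. Of 9 miRNAs that overlap other noncoding RNAs 7 were detected on each array, with 8.28%, 8.98% and 10.3% of the summed signal, mainly from miR-4454 and miR-1246.

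MiR-4711-3p had the widest range of the miRNAs detected on all 3 control arrays, 3.20. Its signal was 228 on Lovo, 54 on SW620 and 3047 on HT29, with differences of -2.37 ± 0.26 and -3.20 ± 0.27 against HT29. On the knockdown arrays it gave 261, 6403 and 4983.5, so that SW620 was low on its control array and high on the other. MiR-142-3p gave 265, 1194.5 and 2645, with -2.15 ± 0.18 between Lovo and HT29 and -1.66 ± 0.42 between Lovo and SW620, and its knockdown arrays gave -31.5, 1097.5 and 217. MiR-22-3p differed by -1.80 ± 0.64 between Lovo and HT29, and miR-4800-3p by -1.95 ± 0.20 between SW620 and HT29.

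MiRNAs brighter on SW620 than on Lovo were mostly bright on HT29 too. MiR-191-5p, often used as a reference miRNA, gave 311.5 on Lovo, 845.5 on SW620 and 1148.5 on HT29, with a difference of -1.40 ± 0.44 (Lovo minus SW620), or -0.97 with the other Lovo array. MiR-193a-3p gave 643.5, 1635 and 1882.5 (-1.28 ± 0.39, or -3.22 with the other Lovo array), and miR-125a-5p, which shares the seed of miR-125b-5p, gave 358, 911 and 841.5 (-1.19 ± 0.28). In each case Lovo was low and the other arrays lay together. MiR-382-3p was at the cutoff of 50 on Lovo and at 314.5 on SW620 (-1.31 ± 0.10), with HT29 between them. MiR-19b-3p gave 177, 528.5 and 1016 (-1.15 ± 0.30, or 0.0077 with spike scaling).

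Fewer miRNAs were brighter on SW620 than on HT29, and the differences were small. MiR-199a-5p differed by 1.03 ± 0.06 on the normalised scale, although its signals of 4334.5 and 3095.5 stand in a ratio of 1.40. MiR-3157-3p (605.5 against 211), miR-4732-3p (713 against 299.5) and miR-1915-5p (493.5 against 164.5) differed by 1.13 ± 0.10, 1.11 ± 0.05 and 1.09 ± 0.18. Let-7d-3p, miR-212-3p and miR-204-3p were also past 2-fold, at 1.07 ± 0.47, 1.03 ± 0.72 and 1.01 ± 0.26, but with the median over spots they were under it at 0.60, 0.45 and 0.71. MiR-199a-5p was under it at 0.71 in the authors' deposited table, and miR-1247-5p was just under it at 1.00. Of the 7 at or past 2-fold here, none was brighter by as much as 2-fold on the SW620 knockdown array than on the HT29 one, and 6 of the 7 had a negative difference there, among them miR-199a-5p at -0.27 (904.5 against 1066.5). MiR-204-3p was the exception at 0.19.

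Some miRNAs were detected on 1 line alone. On Lovo, miR-196b-3p had a signal of 1136 against 42.5 and -49, at least 5.58-fold, and was the only one of the 42 above the 95th percentile of the viral probes. On the other Lovo array its signal was 68.5. Its other arm, miR-196b-5p, was detected on SW620 (230.5) and HT29 (225.5) and not on Lovo (7). The arms of this HOXA-cluster hairpin thus showed opposite patterns on the control arrays. The 5p signals were under the 95th percentile of the viral probes. On the knockdown arrays miR-196b-5p was at 58.5 for SW620 and -41 for HT29. Of 473 hairpins with a probe for each arm, both arms were detected for 34 on Lovo, 41 on SW620 and 34 on HT29. These are 14.5%, 18.1% and 17.2% of the hairpins with a detected arm. The 5p arm alone was detected for 93, 85 and 85, and the 3p arm alone for 107, 100 and 79. A single detected arm was therefore the usual case, where 25.4%, 26.5% and 22.5% of all human probes were detected. MiR-18b showed the same kind of opposition, with the 5p arm on HT29 alone (-1.5, 6.5 and 217) and the 3p arm on Lovo and SW620 (371.5, 349.5 and 43.5), as did miR-5588 at lower signals. The signals of both hairpins were under the 95th percentile of the viral probes. On the HT29 knockdown array the 5p arm of miR-18b was at -58.5 and its 3p arm at 626.

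On HT29 alone were, beside miR-93-5p, miR-34a-5p (-40.5, 32 and 430.5), a direct target of p53, and miR-32-5p (-3, -8 and 312.5), at least 2.91-fold and 2.09-fold brighter. MiR-210, which is induced by low oxygen, was also detected there alone (17, 12 and 161.5). Of the 22 on HT29 alone, only miR-93-5p and miR-34a-5p passed the 95th percentile of the viral probes (372.25). On SW620 alone the brightest was miR-139-5p, which is often low in colorectal tumours, at 207 against 21.5 and 28.5. None of the 52 on SW620 alone passed the 95th percentile of the viral probes. Missing on HT29 and present on both others were miR-375, miR-18b-3p, miR-1226-3p (395.5, 250.5 and 42), miR-4740-3p (309, 242.5 and 14) and miR-3189-3p (299.5, 193.5 and 23). Each of these was detected on the HT29 knockdown array, in the same order at 100, 626, 224.5, 568 and 627.5. On SW620, miR-3654, miR-548ao-3p and miR-4475 were below the cutoff at 44.5, 30.5 and 44, and on Lovo miR-4487, miR-744-5p, miR-1587 and miR-624-3p were, besides miR-196b-5p.

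How far a line kept its pattern was read from the second array of each line. Of the miRNAs on 1 control array alone, 33 of the 42 of Lovo were detected on its knockdown array, against 10 of the 52 of SW620 and 2 of the 22 of HT29. The numbers for those missing on 1 control array alone were 10 of 27, 11 of 16 and 45 of 63. Over all human miRNAs detected on the control array, 408 of 481, 368 of 502 and 318 of 425 were detected on the second array of the line. These shares are a baseline for the miRNAs on 1 control array alone, and not for those missing there. Of all 1891 human probes, detected on the control array or not, the Lovo knockdown array detected the most (542, against 398 for SW620 and 419 for HT29). Most probes detected on a second array were thus detected on the control array of its line too. Of the 21 miRNAs that differed at least 2-fold between Lovo and SW620, 17 were detected on both knockdown arrays too, and 13 of these kept the sign there and 5 a 2-fold difference. For Lovo and HT29 the numbers were 16, 14 and 5. For SW620 and HT29 they were 12, 3 and 1, so that most of these differences had the other sign. Over all miRNAs detected on the 4 arrays of a comparison the sign was shared by 55.0% of 309, 59.1% of 276 and 45.6% of 283.

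The control arrays were more alike by this measure than each was to the second array of its own line. Over the 256 miRNAs detected on all 6 arrays, 5.86% differed at least 2-fold between Lovo and SW620, 5.86% between Lovo and HT29 and 4.69% between SW620 and HT29. Between control and knockdown of 1 line it was 15.2% for Lovo, 18.0% for SW620 and 13.7% for HT29. Pearson's r across these miRNAs, which share their probes and labelling and are not independent, was 0.87, 0.86 and 0.87 between the control lines and 0.77, 0.69 and 0.77 within a line. The knockdown arrays of SW620 and HT29 were also alike (7.81%), and the Lovo knockdown array stood apart from both (25.4% each). Pairs that share neither line nor shRNA varied widely: the SW620 knockdown and HT29 control arrays differed in 5.86%, the Lovo control and HT29 knockdown arrays in 7.81% and the Lovo knockdown and HT29 control arrays in 27.7%. Each array is 1 culture and 1 hybridisation, so culture, array and shRNA cannot be told apart in these values.

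**Figure D5:**
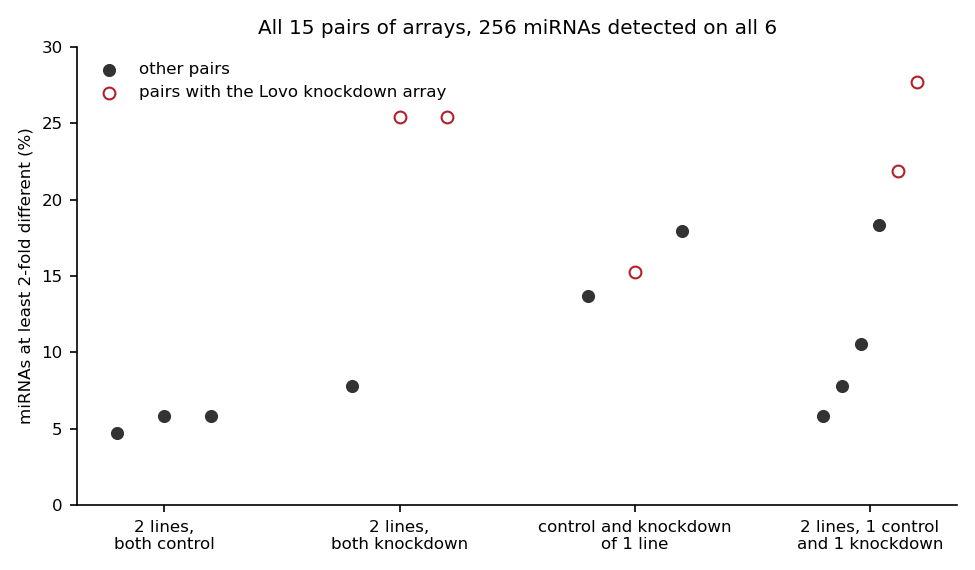
Share of the 256 miRNAs detected on all 6 arrays that differed at least 2-fold, for each of the 15 pairs of arrays, grouped by what the pair shares; open circles are pairs that include the Lovo knockdown array. The 3 pairs of control arrays lie between 4.69% and 5.86%, below the 3 pairs of 1 line at 13.7% to 18.0%.

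With the other Lovo array in place of the one titled control, 76 of 405 miRNAs differed at least 2-fold from SW620 and 90 of 334 from HT29. None of the named differences that involve Lovo changed its sign under that exchange, and miR-5000-3p, miR-614 and miR-363-5p stayed above both lines by at least 2-fold. The differences of miR-4297 from both lines, of miR-4524b-5p from HT29 and of miR-191-5p from SW620 were no longer 2-fold. In all, 47 named differences were past 2-fold, and those between SW620 and HT29 cannot change under the exchange. Of the others, 11 moved by more than the spread between spots, the most for miR-142-3p (-3.69 from SW620 and -4.18 from HT29) and miR-193a-3p.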

How the data were processed

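Human miRNA probes on 3 control arrays (1 per line) were described, with the 3 knockdown arrays beside them. Per the file headers, the deposited table of spots gives foreground intensity with and without background subtracted, and the sources used here do not say how the authors measured background. Per the labels' protocols, total RNA from TRIzol and a column kit was labelled with Hy3. The authors' value table holds a linear ratio, uncentred: the background-subtracted median of a probe's spots over an array-wide factor (337, 282.75 and 330.75 for the Lovo, SW620 and HT29 control arrays), within 1% for 100% of values. How the factor was derived is unknown. Column medians were 0.493, 0.446 and 0.638.

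From the deposited foreground intensities, log2 values were made with limma 3.58.1 in R 4.3.3: normexp with an offset of 50, the mean over 4 spots and quantile normalisation over all 6 arrays without control probes. The steps were also run on simulated arrays whose known changes were placed only in brighter miRNAs, so dim miRNAs were not covered. Detection needed a signal of at least 50. Tables were made with Python 3.11.15 and pandas 2.3.3. No test was run. The miRNAs named are the 20 brightest per line, the 8 highest and 8 lowest differences per pair, up to 8 detected on 1 line alone and up to 5 missing on 1 line alone, the 10 most even, and examples from 21 lists, of whose 197 entries 193 have a probe. Members, lists and rules were chosen with earlier results of these data known. Alternatives were other scalings, cutoffs, background corrections and summaries over spots, the authors' table and the other Lovo array.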

Additional observations from a re-analysis of the deposited data

Results flagged for a closer look

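Some miRNAs differed at least 2-fold between a pair of lines on the control arrays and at least 2-fold in the opposite direction on the knockdown arrays. The differences between these differences were not tested, since there was 1 array per line and shRNA. MiR-4329 differed by 1.01 between Lovo and SW620 on the control arrays and by -1.56 on the knockdown arrays. MiR-191-5p differed by -1.34 between Lovo and HT29 on the control arrays and by 1.01 on the others. MiR-4800-3p did so in both pairs with HT29, with -1.55 and 1.05 for Lovo minus HT29 and -1.95 and 1.51 for SW620 minus HT29. Its signal was 8410.5 on the HT29 control array and 1137 on the HT29 knockdown array. For SW620 minus HT29, miR-1915-5p differed by 1.09 and -1.21, and miR-3960 by -2.35 and 1.61, the first of these with an SE over spots of 1.04.

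Viral miRNA probes, which served only as a reference level, were detected on the control arrays in 30 cases for Lovo, 35 for SW620 and 28 for HT29, of 146 each. The brightest was the probe for hsv1-miR-H4-3p, a herpes simplex virus miRNA, at 4029 on Lovo, 1300 on SW620 and 1353.5 on HT29. The probe for ebv-miR-BART18-3p reached 1533 on HT29.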

How the results depend on the processing

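No paired analysis was possible because each line had 1 control array and the labels give no replicate numbers. For Lovo against SW620, Lovo against HT29 and SW620 against HT29 in this order, the counts of miRNAs at least 2-fold different (21, 29 and 22) were 230, 365 and 321 with scaling on spike probes, 121, 100 and 114 with plain subtraction, 89, 106 and 98 in the authors' table, and 88, 92 and 90 at a threshold of 1.5-fold. They were 5, 6 and 2 above the 95th percentile of viral probes, a limit chosen after seeing the data. No normalisation gave 51 for Lovo against HT29 and 60 for SW620 against HT29, median scaling 46 for Lovo against HT29, and the other Lovo array 76 and 90 for its pairs. In the authors' table the split of SW620 over HT29 was 49 to 49. Detected miRNAs fell to 134, 109 and 167 above the viral limit, and the 20 brightest held 22.9%, 22.6% and 27.4% of the foreground signal taken alone.

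Of 48 named differences, 26 had the same sign and were at least 2-fold under spike scaling, against 37 to 48 under the other settings. Of the 47 past 2-fold, 33 moved under spike scaling by more than the spread between spots, 8 reversed and 6 did neither. Of 40 list medians 7 kept their sign. Reversed under spike scaling were, between Lovo and SW620, miR-19b-3p at 0.0077 and, between Lovo and HT29, miR-142-3p at 0.16, miR-16-5p at 0.21, miR-106b-5p at 0.44, miR-15a-5p at 0.60, miR-22-3p at 0.35, miR-19a-3p at 0.70 and miR-30b-5p at 0.72. The spike signals themselves differ between arrays, and the cause was not tested. No named difference changed sign under the other scalings, plain subtraction, the authors' table, the median over spots or the other Lovo array. The last can change only the differences that involve Lovo. Of the 48 named differences 44 exceeded 2 SE over spots. Dim miRNAs, near the level of viral probes, limit every count.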
